A study of Mus musculus with 12 samples.

Results

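Msln, Krt19, Aldh1a1, Slpi, Efemp1 and Igfbp6 are 6 genes named in the field among the genes of mesothelium and other body-lining epithelia, and their signals differed between arrays of the same group in cultured mouse endothelial cells. They were picked because of their values on these 12 arrays, so their spread and their resemblance to each other are given as descriptions without a test. The array had 1 probe set for each, and they are 6 of the 18193 genes with a probe set of 1 symbol. Of the 6, 5 reached a signal of 100 on at least 4 arrays and were tested among 10261 genes, while Efemp1 reached it on 3 arrays and was not tested.

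The cells were endothelial cells from newborn wild-type mice, grown in DMEM with fetal calf serum. The tmTNF group was stably transfected with a murine TNF mutant that stays in the membrane because it cannot be cleaved. The soluble TNF group received TNF at 20 ng/ml for 4 h, and the control group was mock-transfected, with 4 arrays in each group. The labels do not say whether the arrays of a group came from separate cultures, animals or clones, so the error terms cover only the spread between these arrays, which may be technical. Each value is a signal of 1 probe set on 1 array, made from about 5 ug of total RNA, and 4 arrays a group limit the precision. Arrays are numbered in accession order within a group, and a number links no arrays between groups.

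Mesothelium is the flat cell layer that lines the pleura, the peritoneum and the pericardium, and it combines keratins with vimentin. Mesothelin, the product of Msln, is a surface glycoprotein held by a glycosylphosphatidylinositol anchor that binds the mucin Muc16. Keratin 19 is a type I keratin of simple epithelia and mesothelium, and it forms filaments only with a type II keratin such as Krt8 or Krt7. Aldh1a1 oxidises retinaldehyde to retinoic acid. Slpi is a secreted inhibitor of neutrophil elastase and cathepsin G. Efemp1 encodes fibulin-3, a secreted matrix glycoprotein, and Igfbp6 encodes a secreted binding protein with a preference for insulin-like growth factor 2.

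The rest of the mesothelial programme was mostly dim. Of 24 other mesothelial markers on the array, 17 stayed under 100 on all 12 arrays. Among these, the surface uroplakin Upk3b did not exceed 21.7 and the transcription factor Wt1 did not exceed 45.7. Krt18, the usual type I partner in simple epithelia, did not exceed 75.1, and Krt8 exceeded 100 on control array 1 alone, at 113. The 4 that passed the filter were Anxa8, Ildr2, Cldn15 and Gata6. Upk3b, Wt1, Krt8 and Krt18 therefore did not mark these cells as mesothelial. On their brightest arrays, however, Anxa8 read 3376.5, Ildr2 619, Cldn15 8462 and Gata6 1345. The markers thus gave no uniform picture, and the genes are called here by their names or as the 6 genes. All 23 endothelial markers passed the filter, and Pecam1, the endothelial adhesion molecule, read between 1279.5 and 16874 over the 12 arrays.

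Sequence windows around the annotated starts are shown for Aldh1a1 because a neighbouring paralog, Aldh1a7, shares most of its sequence close to the start and the signals of the 2 genes parted on some arrays. The promoter table used here, drawn from RefSeq of assembly GRCm38.p6, gave windows for 4 of the 6 genes, each with 250 bases before and 50 bases after its start, and Msln and Krt19 are named only. Matches on either strand to 6 short motifs were searched. These were a TATA box (TATAAA, in 13.6% of 32817 promoters), a GC box (GGGCGG, 35.6%), a CAAT box (CCAAT, 37.4%), an AP-1 site (TGANTCA, 7.81%), a TEAD site (GGAATG, 14.7%) and the NF-kB consensus (8.46%). Capitals mark the matches, no 2 matches overlap, and a match is a description of letters and not a site of binding. The 2 annotated starts of Aldh1a1 lie on the plus strand at chr19:20492333-20492632 and chr19:20601718-20602017, Aldh1a7 lies on the minus strand at chr19:20727507-20727806, and Efemp1 lies on the plus strand at chr11:28852955-28853254. Each sequence reads 5′ to 3′ on the strand of its gene.
Aldh1a1 second start: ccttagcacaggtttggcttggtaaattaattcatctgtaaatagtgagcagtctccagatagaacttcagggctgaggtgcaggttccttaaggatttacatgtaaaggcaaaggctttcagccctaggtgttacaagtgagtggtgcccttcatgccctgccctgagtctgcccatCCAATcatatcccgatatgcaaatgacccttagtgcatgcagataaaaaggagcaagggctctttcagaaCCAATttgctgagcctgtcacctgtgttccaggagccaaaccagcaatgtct
Aldh1a7: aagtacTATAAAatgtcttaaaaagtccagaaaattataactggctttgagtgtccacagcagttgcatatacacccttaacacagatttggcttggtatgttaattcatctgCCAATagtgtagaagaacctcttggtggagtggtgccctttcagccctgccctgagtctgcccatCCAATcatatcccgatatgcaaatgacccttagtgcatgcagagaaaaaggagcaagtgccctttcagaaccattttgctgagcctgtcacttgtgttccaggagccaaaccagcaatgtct
Aldh1a1 first start: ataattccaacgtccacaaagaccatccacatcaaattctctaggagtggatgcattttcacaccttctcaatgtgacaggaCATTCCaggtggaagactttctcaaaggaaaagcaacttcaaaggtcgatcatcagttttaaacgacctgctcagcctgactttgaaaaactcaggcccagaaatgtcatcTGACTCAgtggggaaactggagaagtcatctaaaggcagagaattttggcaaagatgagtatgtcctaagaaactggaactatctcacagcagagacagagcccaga
Efemp1: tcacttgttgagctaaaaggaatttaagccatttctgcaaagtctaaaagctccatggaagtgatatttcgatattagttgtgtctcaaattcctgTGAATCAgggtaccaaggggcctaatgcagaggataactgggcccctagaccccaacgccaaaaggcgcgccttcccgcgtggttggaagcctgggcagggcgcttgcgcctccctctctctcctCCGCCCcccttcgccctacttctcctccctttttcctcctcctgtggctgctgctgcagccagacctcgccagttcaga

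Aldh1a7 and the second Aldh1a1 start were identical at 142 of the 150 bases from 100 before to 50 after the start, or 94.7%, compared without gaps. The first Aldh1a1 start matched Aldh1a7 at 29.3% of these bases. Both similar windows carry a CAAT box with its first base at position -72 from the start. Aldh1a1 has a further one at -2, and Aldh1a7 one at -137 and a TATA box at -244. The first Aldh1a1 start has a TEAD match at -168 and an AP-1 match at -57, and Efemp1 has an AP-1 match at -154 and a GC box at -29. The Igfbp6 window, on the plus strand at chr15:102143936-102144235, held a TATA box at -148 and CAAT boxes at -107 and -50. Slpi, on the minus strand at chr2:164356458-164356757, held none of the 6 motifs, and the NF-kB consensus matched in none of the 4 genes.

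Msln and Krt19, the surface and cytoskeletal members, followed each other closely over the arrays. Msln read 40.5, 2460.4, 45.5 and 1288.5 on tmTNF arrays 1 to 4, 938, 467, 24.3 and 1578 on soluble TNF arrays 1 to 4, and 216, 53.5, 3412 and 91.6 on control arrays 1 to 4. The brightest array was thus a control, the next a tmTNF array and the third a soluble TNF array, and every group held at least 1 array under 100. Krt19 read 65.4, 11494, 79.3 and 5564 on the tmTNF arrays, 3244, 397, 348 and 2801 on the soluble TNF arrays, and 166, 217, 7119.8 and 249 on the control arrays. tmTNF arrays 1 and 3 were the 2 dimmest for Krt19, tmTNF array 2 was the brightest, and the groups overlapped for both genes. The highest signal was 141 times the lowest for Msln and 176 times for Krt19.

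**Figure D1:**
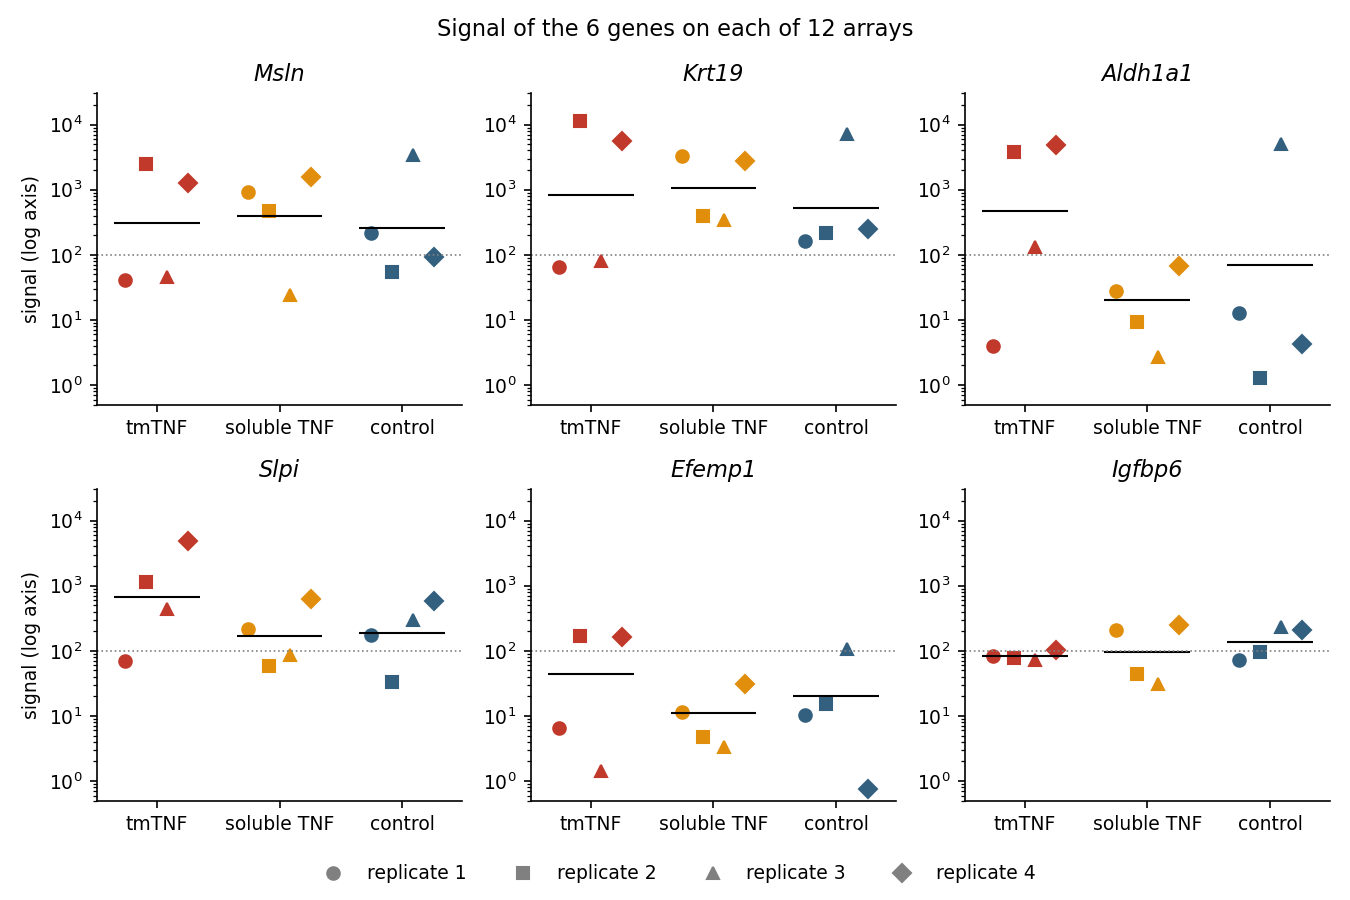
Signal of each of the 6 genes on every array, with a log axis, in the tmTNF, soluble TNF and control groups from left to right. Marker shape gives the array number, the black line the group mean on the log2(signal + 16) scale and the dotted line a signal of 100. For Aldh1a1, control array 3 and tmTNF arrays 2 and 4 stand at 3839.5 or more and the other 9 at 132 or less.

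Aldh1a1, the retinaldehyde dehydrogenase, was bright on 3 arrays and dim on the other 9. It read 4.0, 3839.5, 132 and 4872 on tmTNF arrays 1 to 4, 27.9, 9.2, 2.7 and 67.3 on the soluble TNF arrays, and 12.8, 1.3, 5066.5 and 4.2 on the control arrays. No soluble TNF array reached 100, yet each of their values lay inside the range of the other groups. The signals of its paralog Aldh1a7, which is not among the 6 genes and failed the filter, were 28.6, 46.7, 8.6 and 32.9 on the tmTNF arrays, 105, 20.1, 12.4 and 75.2 on the soluble TNF arrays, and 0.75, 3.7, 4995 and 38.8 on the control arrays. Control array 3 was therefore bright for both paralogs, while tmTNF arrays 2 and 4 were bright for Aldh1a1 and under 100 for Aldh1a7. How far each probe set binds the transcript of the other paralog was not tested.

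The secreted members split into a bright inhibitor and 2 dim genes. Slpi, the elastase inhibitor, read 70.0, 1125, 439 and 4849.7 on tmTNF arrays 1 to 4, 213, 59.0, 84.8 and 623 on the soluble TNF arrays, and 173, 32.9, 298 and 592 on the control arrays. Its 2 brightest arrays were tmTNF arrays 4 and 2, and control array 3, the brightest for Msln and Aldh1a1, was below control array 4. Efemp1, the fibulin-3 gene, read 6.5, 166, 1.4 and 165 on the tmTNF arrays, 11.7, 4.8, 3.3 and 31.5 on the soluble TNF arrays, and 10.2, 15.1, 108 and 0.75 on the control arrays. The 3 arrays over 100 were the same that were bright for Aldh1a1. Igfbp6 read 83.6, 77.0, 71.1 and 102 on the tmTNF arrays, 208, 43.9, 31.1 and 245 on the soluble TNF arrays, and 71.2, 97.1, 230.0 and 212 on the control arrays. Its 4 brightest arrays were soluble TNF array 4, control array 3, control array 4 and soluble TNF array 1. tmTNF array 2, the brightest for Krt19, was among its dimmer ones, and its highest signal was 7.88 times its lowest, the smallest ratio of the 6.

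Between the groups, the 6 genes had means within their spread. Msln averaged 959 ± 1161 in tmTNF cells, 752 ± 665 in soluble TNF cells and 943 ± 1647 in control cells (SD, n = 4 each). Krt19 averaged 4301 ± 5450 in tmTNF cells, 1697 ± 1541 in soluble TNF cells and 1938 ± 3455 in control cells (SD, n = 4 each). Each of these SDs was near its mean or above it. Aldh1a1 averaged 2212 ± 2512 in tmTNF cells, 26.8 ± 29.0 in soluble TNF cells and 1271 ± 2530.2 in control cells (SD, n = 4 each). Slpi averaged 1621 ± 2196 in tmTNF cells, 245 ± 261 in soluble TNF cells and 274 ± 238 in control cells (SD, n = 4 each). In both genes the tmTNF mean was carried by tmTNF arrays 2 and 4. Efemp1 averaged 84.8 ± 93.3, 12.8 ± 13.0 and 33.6 ± 50.1 in tmTNF, soluble TNF and control cells, and Igfbp6 averaged 83.3 ± 13.2, 132 ± 110.4 and 153 ± 80.2 (SD, n = 4 each).

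For tmTNF against control, the lasting exposure by its label, 0 of the 5 tested genes passed an adjusted p of 0.05 in limma, against 0.195% of all genes tested. Y-linked signals were higher on every tmTNF array than on any other array. The sex of the cells therefore cannot be told apart from tmTNF here or in tmTNF against soluble TNF. The log2 fold change on the log2(signal + 16) scale was largest for Aldh1a1, at 2.52 ± 1.98 (SE, adjusted p = 0.880), and for Slpi, at 1.74 ± 1.14 (SE, adjusted p = 0.828). It was 0.23 ± 1.59 for Msln and 0.66 ± 1.72 for Krt19, where the SE exceeded the difference. Igfbp6 had -0.64 ± 0.57, and Efemp1, untested, had 0.73. Control array 3 and tmTNF arrays 2 and 4 were also left out, a choice made after the values were seen. The fold changes then turned to -1.03 for Msln, -1.35 for Krt19 and -0.27 for Efemp1. They were 1.33 for Aldh1a1, 0.16 for Slpi and -0.49 for Igfbp6. With 1 array left out at a time, Aldh1a1 ran from 1.41 (without tmTNF array 4) to 4.49 (without control array 3), and Slpi from 0.79 (without tmTNF array 4) to 2.73 (without tmTNF array 1).

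For soluble TNF against control, the short exposure, 0 of 5 passed, against 0.039% of all genes tested. The log2 fold change was 0.58 ± 1.59 for Msln, 1.03 ± 1.72 for Krt19 and -1.22 ± 1.98 for Aldh1a1 (SE), with adjusted p of 0.909, 0.839 and 0.836 in limma. Slpi had -0.17 ± 1.14 and Igfbp6 -0.44 ± 0.57 (SE), and untested Efemp1 had -0.42. Aldh1a1 turned to 0.75 without control array 3, its single bright control array, and Slpi to 0.04 and Efemp1 to 0.17 without that array and tmTNF arrays 2 and 4. Msln had 1.79 and Krt19 2.28 without control array 3.

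For tmTNF against soluble TNF, 0 of 5 passed, against 1.22% of all genes tested. Aldh1a1 had a log2 fold change of 3.75 ± 1.98 (SE, adjusted p = 0.313 in limma) and Slpi one of 1.90 ± 1.14 (SE, adjusted p = 0.372). Msln had -0.35 ± 1.59, Krt19 -0.37 ± 1.72 and Igfbp6 -0.20 ± 0.57 (SE), and untested Efemp1 had 1.15. Without control array 3 and tmTNF arrays 2 and 4, Aldh1a1 had 0.59 and Slpi 0.12, while Msln had -2.81 and Krt19 -3.62 (adjusted p = 0.0786 in limma) and Efemp1 turned to -0.45. These 3 arrays were picked after the values of the genes were seen. The tmTNF arrays that stayed, 1 and 3, were the 2 dimmest for Krt19, so the choice itself lowered its value and this p is no test. With 1 array left out at a time, Aldh1a1 ran from 2.64 to 5.28 and Slpi from 0.96 to 2.90, both lowest without tmTNF array 4 and highest without tmTNF array 1. In each of the 3 comparisons, 0 of the 5 genes had an unadjusted p under 0.05 in limma, and the groups overlapped for all 6 genes. Among the 10261 genes tested, 2036 had such a p when the tmTNF arrays were set against the soluble TNF arrays. Against the control arrays, 777 had one with tmTNF and 1303 with soluble TNF. A count of 0 among 5 genes is thus near the background and says little about them. The share of all genes with overlapping groups is not given here. The tmTNF and soluble TNF comparisons with control share the control arrays, among them control array 3.

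The differences lay mostly between arrays of the same group, as they also did for the median of all genes tested. Group accounted for 1.11% of the variance of Msln and 2.98% of that of Krt19 on the log2 scale, against a median of 23.0% over all genes tested. The share was 23.8% for Aldh1a1 and 22.4% for Slpi, both near that median, 14.5% for Efemp1 and 11.3% for Igfbp6. The SD within groups was 3.23 for Aldh1a1, 2.80 for Krt19 and 2.59 for Msln on the log2 scale, against a median of 0.45 over all genes tested. By this SD, Aldh1a1 ranked 10th, Krt19 28th and Msln 50th of the 10261 genes, and Slpi, with 1.85, ranked 242nd. Igfbp6, with 0.86, ranked 1608th. These ranks describe genes that were picked for varying.

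Across the 12 arrays, all 15 pairs of the 6 genes had a positive Pearson r, from 0.229 to 0.923 with a median of 0.658, and the median Spearman rho was 0.573. These coefficients describe 12 arrays of 3 groups on the log2(signal + 16) scale and carry no p, since the genes were picked on the same arrays. After the mean of its group was taken from each value, r ran from 0.349 to 0.952 with a median of 0.661, so the relation was as close within groups. Krt19 and Efemp1 had the highest within-group r, 0.952, followed by Krt19 with Aldh1a1 at 0.921 and Msln with Krt19 at 0.917. Over the 3 group means, 5 of 15 pairs were positive, from -0.782 to 0.999 with a median of -0.205, and 3 points leave such values with little meaning.

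**Figure D2:**
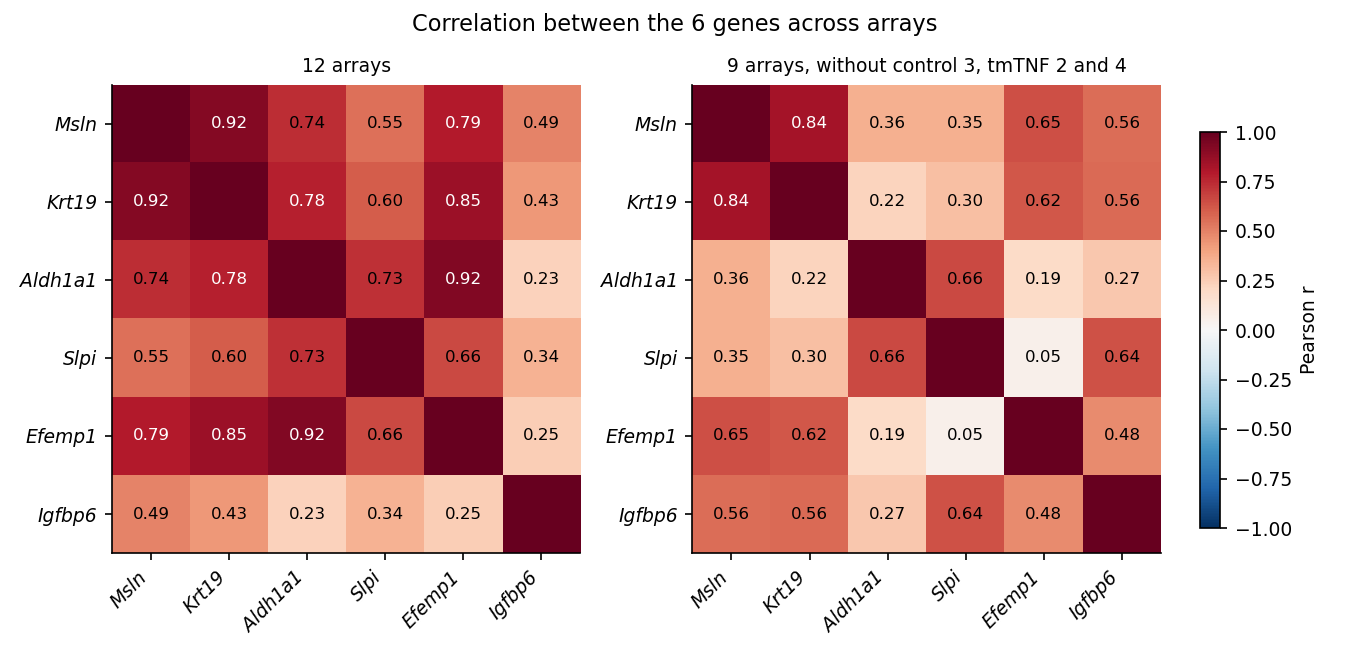
Pearson r between the 6 genes, on the log2(signal + 16) scale with no group mean taken out, over 12 arrays on the left and over the 9 arrays without control array 3 and tmTNF arrays 2 and 4 on the right. Msln with Krt19 has r = 0.916 on the left and 0.836 on the right, while Krt19 with Aldh1a1 has 0.779 and 0.223.

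Because Aldh1a1 fell into 2 separate levels, the coefficients were also taken over the 9 arrays where it was dim, with no group mean taken out, a setting chosen after the values were seen. There Aldh1a1 lay between 1.3 and 132, so its range was narrowed by the choice itself, and its coefficients are values with little signal behind them. All 15 pairs remained positive there, from 0.0507 to 0.836 with a median of 0.476. Msln and Krt19 had an r of 0.836, against 0.916 over all 12 arrays. Aldh1a1 had 0.223 with Krt19, 0.356 with Msln, 0.193 with Efemp1 and 0.272 with Igfbp6 over the 9 arrays, against 0.779, 0.741, 0.923 and 0.229 over 12. With Slpi it had 0.661 over the 9 arrays, against 0.732 over 12. Slpi with Efemp1 had 0.0507, against 0.658 over 12 arrays. When the 2 arrays farthest from the median of the first gene of a pair were left out, r ran from 0.0153 to 0.944 with a median of 0.592.

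Igfbp6 stood apart from the other 5. The 5 pairs that include it had a median r of 0.345 over 12 arrays, against 0.760 for the 10 pairs without it, and after group means were taken out these were 0.515 and 0.881. Over the 9 arrays the order turned, with 0.555 for pairs with Igfbp6 and 0.355 for pairs without it. Its signal lay closer to that of Col1a2, a fibrillar collagen chain, with an r of 0.934 over 12 arrays and 0.957 over the 9. Col1a2 was not the gene nearest to it. After group means were taken out, Ppm1e had an r of 0.972 and Syn1 0.960, both named after their values were seen, against 0.956 for Col1a2.

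The mean of the 6 genes ran opposite to the endothelial markers. All 23 endothelial markers had a negative within-group r with that mean, with a median of -0.87, against 0.03 for all genes tested. Of them, 17 had an r of -0.8 or less, a level reached by 5.08% of all genes tested. Emcn, an endothelial sialomucin, read 26092.5, 2534.5, 18700.1 and 3733 on tmTNF arrays 1 to 4, 3234, 10105, 11033 and 3929 on the soluble TNF arrays, and 19699, 18236, 1158 and 12962 on the control arrays. The arrays dim for Emcn were thus those bright for Krt19 in every group. The tight-junction gene Cldn5, named after its values were seen, read 12913, 498, 21554 and 290.1 on the tmTNF arrays, 594, 5607, 9553 and 1360.5 on the soluble TNF arrays, and 1056, 13357, 77.8 and 5254 on the control arrays. The mean of the 23 markers had an r of -0.930 with the mean of the 6 genes over 12 arrays and -0.796 over the 9. Genes with a wide spread weigh most in the mean of the 6, and the single genes differed. Over 12 arrays, r was -0.947 for Krt19, -0.924 for Msln, -0.872 for Efemp1, -0.846 for Aldh1a1, -0.547 for Slpi and -0.390 for Igfbp6. Over the 9 arrays these were -0.927, -0.888, -0.549, -0.189, -0.238 and -0.439. In a mixed culture, fewer cells of a type and less RNA per cell cannot be told apart from these signals.

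**Figure D3:**
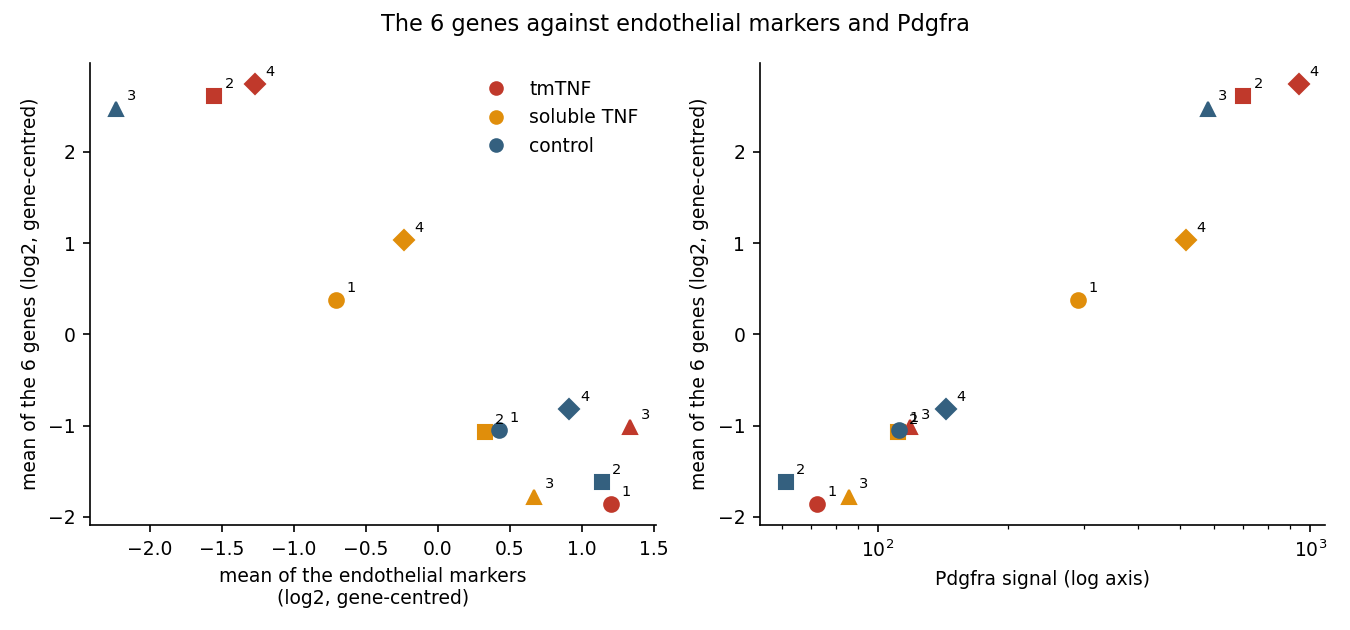
Mean of the 6 genes per array (gene-centred log2(signal + 16), vertical axis) against the mean of the 23 endothelial markers on the same scale (left) and against the Pdgfra signal on a log axis (right), for 12 arrays in 3 groups with the array number beside each point. The points fall with the endothelial mean (r = -0.930) and climb with Pdgfra (r = 0.982).

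The genes most like the mean of the 6, by within-group r over 12 arrays, were Ppl at 0.992, Pdgfra at 0.989, Selenoi and Polr3d at 0.980, Styk1 at 0.969, Agpat2 at 0.963, Vegfd at 0.956, Pim3 at 0.954, Ssc4d at 0.951 and Ankrd1 at 0.950. Genes with provisional symbols, such as Gm numbers and Rik names, were left out of this ranking and that of the most opposite genes. An r of 0.8 or more was reached by 3.41% of all genes tested, those with provisional symbols included. Ppl, which encodes periplakin, a linker of keratin filaments to desmosomes, read 51.0, 1531, 81.2 and 1287 on the tmTNF arrays, 227, 65.5, 41.7 and 231 on the soluble TNF arrays, and 66.6, 31.9, 1045 and 65.8 on the control arrays. Pdgfra, a receptor for platelet-derived growth factor found on mesenchymal cells, read 72.2, 699, 119 and 944 on the tmTNF arrays, 291, 111, 85.5 and 517 on the soluble TNF arrays, and 112, 61.1, 579 and 144 on the control arrays. Both were brightest on tmTNF arrays 2 and 4 and control array 3. With no group mean taken out, Pdgfra had an r of 0.982 over 12 arrays and 0.985 over the 9, and Ppl had 0.987 and 0.957. Vegfd, a lymphangiogenic growth factor, read 353 and 586 on tmTNF arrays 2 and 4 and 31.4 and 36.9 on tmTNF arrays 1 and 3.

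The most opposite genes were Mrtfb, a coactivator of serum response factor, at -0.985, Prkch, a protein kinase C, and Rasip1, a regulator of endothelial lumen formation, both at -0.977, Tcea2 at -0.976 and Fgd5, an endothelial exchange factor, at -0.969. Rasip1 read 4081.5, 506, 2963 and 767 on the tmTNF arrays, 1512, 2494, 3472 and 1489.0 on the soluble TNF arrays, and 2238.5, 3891.5, 600.1 and 2847 on the control arrays. Fgd5 read 4229, 391.7, 3890.4 and 298.5 on the tmTNF arrays, 744, 1558, 2033 and 741.5 on the soluble TNF arrays, and 5113, 4789.5, 241 and 2596 on the control arrays. Both were dimmest on tmTNF arrays 2 and 4 and control array 3, where the mean of the 6 genes was highest. Not every one of the 6 was bright there, as Igfbp6 read 77.0 on tmTNF array 2. Over 12 arrays, Igfbp6 had an r of 0.453 with that mean.

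The other mesothelial markers that could be tested did not move as a block. Anxa8, an annexin of lining epithelia, had an r of 0.937 with the mean of the 6 genes and read 19.1, 1348, 20.1 and 3376.5 on the tmTNF arrays, 306, 3.5, 29.6 and 274 on the soluble TNF arrays, and 60.8, 38.0, 608 and 97.5 on the control arrays. Cldn15, a claudin, had -0.927 and was dimmest on control array 3, at 179. Gata6, a transcription factor, had 0.764, and Ildr2 had 0.329. The untested Hp and Dmkn, named after their values were seen, had 0.749 and -0.037. Hp read 565 and 94.4 on tmTNF arrays 2 and 4, 337 and 119 on control arrays 3 and 4, and at most 44.5 elsewhere. Dmkn exceeded 100 only on control array 3, at 281. The summed signal of the 24 markers ran from 3332 to 5968 on the tmTNF arrays, 2288 to 3249 on the soluble TNF arrays and 3216 to 9073 on the control arrays. The part of mesothelial cells in the result was not tested.

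Fibroblast markers followed the 6 genes unevenly. Of 20 on the array, 11 stayed under 100 on all arrays and 7 were tested, with a median within-group r of 0.591, and Pdgfra alone reached 0.8. Col1a2 read 58.2, 88.2, 49.6 and 33.1 on the tmTNF arrays, 3248, 28.5, 6.1 and 2834 on the soluble TNF arrays, and 74.5, 89.0, 4009 and 769 on the control arrays. Col3a1, another fibrillar collagen, read 49.2, 18.3, 159 and 55.9 on the tmTNF arrays, 4119, 1.6, 13.5 and 3758 on the soluble TNF arrays, and 6.0, 48.6, 4547 and 1901 on the control arrays. Both collagens were bright on soluble TNF arrays 1 and 4 and control arrays 3 and 4, and at most 159 on every tmTNF array, also on those where Krt19 was brightest. Dcn, the proteoglycan decorin, named after its values were seen, read 3.7, 3276.5, 186 and 7271 on the tmTNF arrays, at most 25.4 on each soluble TNF array, and at most 27.7 on each control array. It was bright with Krt19 on tmTNF arrays 2 and 4, and dim on control array 3, where Krt19 read 7119.8. Prrx1, another tested fibroblast marker, had a within-group r of 0.761. It read 733 and 2625 on tmTNF arrays 2 and 4, 1532 and 1638 on soluble TNF arrays 1 and 4, and 613 on control array 3. Krt19 was bright on all of these. Prrx1 also read 558 on tmTNF array 3 and 690 on control array 4, where Krt19 read 79.3 and 249. On the other arrays Prrx1 read at most 31.7. The summed fibroblast signal ran from 799 to 11376 on the tmTNF arrays, 746 to 10188 on the soluble TNF arrays and 659 to 11198 on the control arrays, and the part of fibroblasts in the result was not tested.

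**Figure D4:**
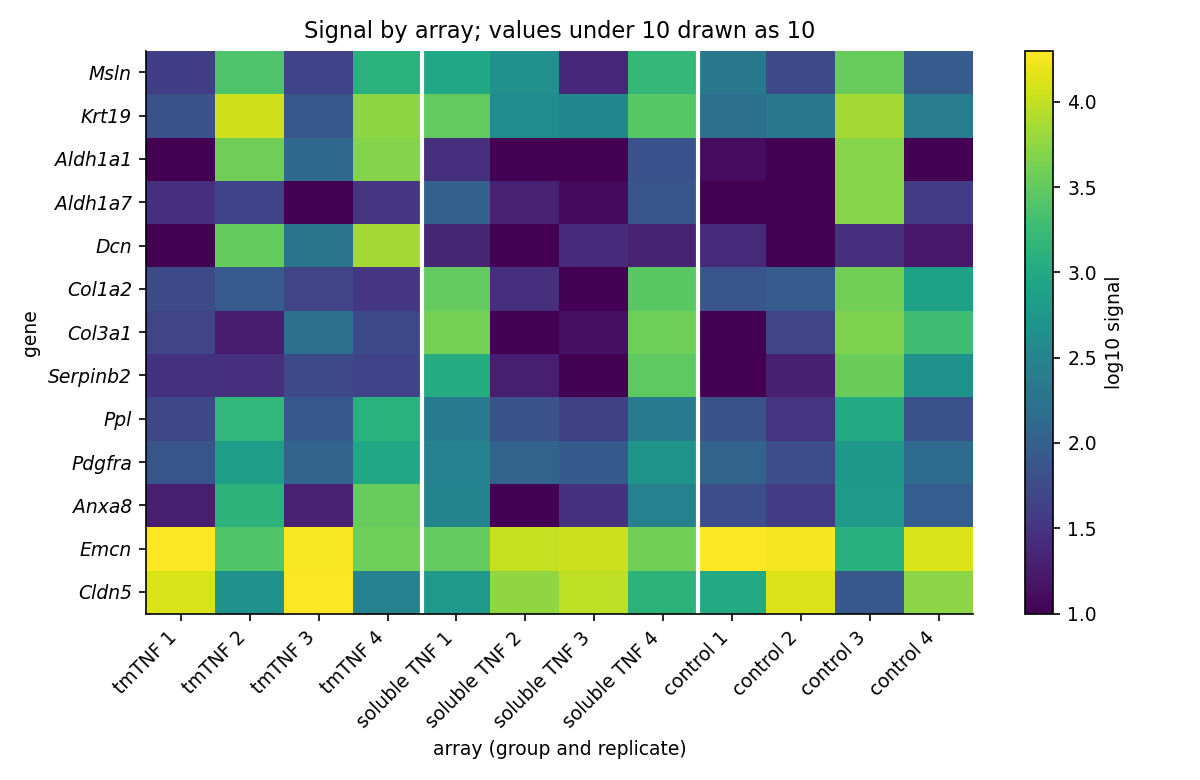
Signal of 13 genes on each of the 12 arrays as a heat map of log10 signal, with values under 10 drawn as 10. Dcn is bright on tmTNF arrays 2 and 4, Col1a2, Col3a1 and Serpinb2 on soluble TNF arrays 1 and 4 and control arrays 3 and 4, and Aldh1a7 on control array 3, while Krt19 is bright on tmTNF arrays 2 and 4, soluble TNF arrays 1 and 4 and control array 3.

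Epithelial and blood cell markers gave no common pattern. Of 16 epithelial markers, 13 stayed under 100 on all arrays, and Grhl2, the single one tested, had an r of 0.503. The untested Epcam and Elf3, named after their values were seen, had 0.495 and -0.408. Epcam read 190 and 202 on tmTNF arrays 2 and 4, 67.0 on control array 3 and 109 on control array 2. Elf3 exceeded 100 only on tmTNF array 1 and control array 1, at 105 and 127. The summed signal of the 16 epithelial markers ran from 568 to 680 on the tmTNF arrays, 471 to 548 on the soluble TNF arrays and 431 to 636 on the control arrays. Among 4 tested leukocyte markers, Cd14, a co-receptor for lipopolysaccharide, had an r of 0.929, while Cd68 and Lyz2 had -0.403 and -0.494. Cd14 read 452, 5129, 377 and 4762.5 on the tmTNF arrays, 351, 157, 178 and 632 on the soluble TNF arrays, and 265, 37.1, 1406 and 330.2 on the control arrays. It was brightest on the same 3 arrays as Aldh1a1. In the smooth muscle list, the 2 tested genes, Acta2 and Notch3, had -0.254 and 0.355, and in the lymphatic list Flt4 had -0.832 and Lyve1 0.279.

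Genes linked to each member's pathway were read from lists, whose counts of calls stand beside 0.195%, 0.039% and 1.22% of all genes tested in the 3 comparisons. At these shares a count of 0 in a list of this size is near the background and says nothing particular about the list. Of 8 tested retinoic acid genes, 0 passed in any comparison and 0 reached an r of 0.8 in either direction (3.41% and 5.08% of all genes tested), with a median r of 0.06. Aldh1a2, the other retinaldehyde dehydrogenase of mesothelium, did not reach 100 on any array. Of 7 tested genes of the insulin-like growth factor axis, 0 passed, with a median r of -0.07. Igfbp4, the brightest of this list, read between 8664 and 15704 over the 12 arrays. Igf2, the preferred ligand of Igfbp6, named after its values were seen, read 3851.5 on soluble TNF array 3 and 10384 on control array 2, where Krt19 read 348 and 217.

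The keratin partner list had 5 tested genes and 0 calls. Ppl and Pkp2, a desmosomal plakophilin, had an r of 0.992 and 0.899, while Vim, encoding vimentin, had -0.301 and read between 31292 and 41502 over the 12 arrays. Krt20 read 464, 533, 289 and 88.4 on the tmTNF arrays, 2041, 793, 1076 and 2492 on the soluble TNF arrays, and 3.8, 58.2, 5903 and 2506 on the control arrays. It was bright with Krt19 on control array 3 and was not bright on tmTNF array 4, where Krt19 read 5564. Of 3 tested whey acidic protein and serine protease inhibitor genes, 0 passed. Serpinb2, an inhibitor of plasminogen activators, followed the collagens, with 1095 and 3006 on soluble TNF arrays 1 and 4 and at most 54.6 on every tmTNF array. Serpina3n, named after its values were seen, read 3555 on control array 3 and at most 35.8 on the other 11 arrays.

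Among fibulins and elastic fibre genes, 7 were tested and 1 passed, for tmTNF minus soluble TNF, where 1.22% of all genes tested passed. Fbln2, encoding fibulin-2, read 981, 130.5, 555 and 114 on the tmTNF arrays and 3731, 4987, 3167 and 4409.8 on the soluble TNF arrays, without overlap. Its log2 fold change for tmTNF minus soluble TNF was -3.64 ± 0.65 (SE, adjusted p = 0.0233 in limma). Its r with the mean of the 6 genes was -0.390, and tmTNF minus control gave -3.15 ± 0.65 (SE, adjusted p = 0.0841 in limma). This list had between 0 and 1 calls in that comparison under the alternatives, and 1 without control array 3 and tmTNF arrays 2 and 4. Ltbp1 and Ltbp3, which encode binding proteins of latent TGF-beta, had an r of 0.890 and 0.869, and Fbln5, encoding fibulin-5, had -0.857. Fbln5 read 9763, 461, 7435 and 1098 on the tmTNF arrays, 98.4, 6439, 11583 and 71.4 on the soluble TNF arrays, and 3823, 17886, 127 and 1395 on the control arrays. The dimmest 3 arrays for Fbln5 were soluble TNF arrays 4 and 1 and control array 3, which were bright for Krt19. Of 6 tested mesothelin partners and anchored proteins, 0 passed, and Gpc6, a glypican named after its values were seen, had an r of 0.846.

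**Figure D5:**
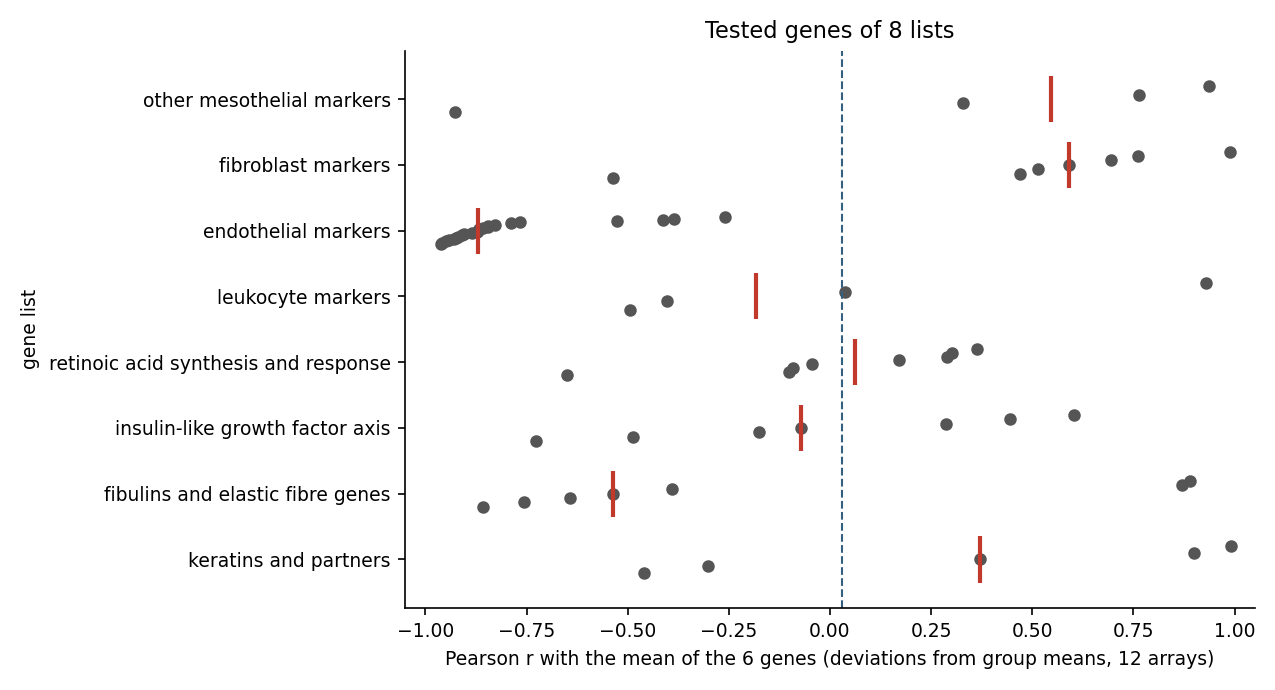
Pearson r of each tested gene with the mean of the 6 genes, over deviations from the group means on 12 arrays, for 8 gene lists. Red bars are list medians and the dashed blue line is the median of all genes tested. The endothelial list has a median of -0.87 and the other mesothelial markers one of 0.55.

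Array quality measures were set against the mean of the 6 genes. Between 17652 and 19174 probe sets reached 100 on each array, with an r of -0.154 over 12 arrays, and the Actb 3′ to 5′ ratio, 1.10 to 1.29, had 0.216. The 18S control signal had an r of 0.625 and ran from 456 to 685 on the tmTNF arrays, 402 to 719 on the soluble TNF arrays and 262 to 466 on the control arrays. Its part in the result was not tested. By correlation over all genes tested, the nearest array to tmTNF array 2 was tmTNF array 4 (0.939) and that to soluble TNF array 1 was soluble TNF array 4 (0.983). Every control array lay nearest to an array of another group. Control arrays 3 and 4 lay nearest to soluble TNF array 4 (0.894 and 0.950). Control array 1 lay nearest to tmTNF array 1 (0.875) and control array 2 to soluble TNF array 3 (0.908). Control array 3 correlated at 0.744 with control array 2. Signals of Y-linked Eif2s3y, Kdm5d and Uty were 218.8 or more on all tmTNF arrays and 39.5 or less on the other 8, so the sex of the cells cannot be told apart from tmTNF. The Tnf probe set read 13.8, 9.99, 77.2 and 62.1 on the tmTNF arrays, 6.18, 8.04, 6.48 and 14.3 on the soluble TNF arrays, and 7.43, 7.33, 20.9 and 25.7 on the control arrays. All lay under 100, so the transfection was not seen at this probe set, and tmTNF names the group as labelled. Whether the transfected mutant carries the probed sequence was not tested.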

How the data were processed

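The deposited values are linear signal intensities, made by the authors with MAS5, per the submitters' processing notes, and each array has 1 for every probe set. The version and settings are not given in the sources used here. Each deposited array had a 2% trimmed mean of 1000.01, so it had been scaled as a whole, and values ran from 0.1 to 95672. Neither scanner files nor detection calls entered the work, and a signal of 100 stands in for background.

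After the 64 control probe sets were set aside, signals were multiplied to bring every array to a 2% trimmed mean of 500, and then turned into log2(signal + 16), which understates the change of dim genes. The platform annotation gave 1 symbol to 34958 of 45101 probe sets, several to 932 and no symbol to 9160, and 34754 gene identifiers matched RefSeq of GRCm38.p6. The counts by symbol do not add up to the total, and the remainder was not traced. A gene was represented by its probe set with the highest mean and tested where that probe set reached 100 on at least 4 arrays. The 3 groups were fitted in 1 model with limma 3.58.1 in R 4.3.3 (eBayes, intensity trend). Tests were two-sided, and a call was a Benjamini-Hochberg adjusted p under 0.05 over 10261 genes. All p-values in the text are from limma, and the script was tested on simulated data. Genes other than the 6 were drawn from a rule (the 10 most alike, the 5 most opposite, the 4 brightest tested genes of each of 13 lists, any list gene that passed, and Pecam1, Cdh5, Upk3b, Wt1, Krt8, Krt18, Col1a1, Pdgfra and Aldh1a7), or named after their values were seen where the text says so or where a pathway turned on them. The text does not describe every gene under the rule, with Cdh5, Col1a1, Esam and Mmrn2 among those left out. Those described were picked with their values known. The 6 genes, the lists and the rules were chosen with earlier results of these data known. Alternatives changed the scaling, pseudocount, filter, merging of probe sets and intensity trend, and left out arrays.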

Additional observations from a re-analysis of the deposited data

Results flagged for a closer look

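In the check for a single array far from the other 3 of its group, on the log2(signal + 16) scale, 21 sets of 4 arrays were read for the 6 genes and Aldh1a7. It marked 2, both on control replicate 3. Chance marks about 1 in 20 sets, but these genes were picked for varying between the same arrays and vary together, so the marks describe the array and are no test. Krt19 read 7119.8 on that array, and the gap to the next control was 0.898 of the range of the 4 arrays, above Dixon's limit for 4 values. Aldh1a1 read 5066.5 on it, with a gap of 0.91 of the range.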

How the results depend on the processing

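Across 22 alternatives, 0 of the 324 values of the 5 tested genes passed the threshold in limma; 297 kept their sign and 27 turned it, with a lowest adjusted p of 0.0786 (Krt19, tmTNF minus soluble TNF), and 6 could not be tested with the filter at 250. The value of 0.0786 came from the setting without control 3, tmTNF 2 and tmTNF 4, arrays picked by the genes' own values, so it is no test. Efemp1 could be tested with no filter, with a lowest adjusted p of 0.550. Without control 3, tmTNF 2 and tmTNF 4, chosen after seeing the data, tmTNF minus control turned to -1.03 for Msln, -1.35 for Krt19 and -0.27 for Efemp1, soluble TNF minus control to 0.75 for Aldh1a1, 0.0381 for Slpi and 0.17 for Efemp1, and tmTNF minus soluble TNF to -0.45 for Efemp1. Leaving out 1 array at a time gave, for tmTNF minus control, -0.75 to 1.44 for Msln and -0.60 to 1.91 for Krt19. For soluble TNF minus control it gave -0.0886 to 1.79 for Msln, -1.99 to 0.75 for Aldh1a1, -0.86 to 0.36 for Slpi and -0.79 to 0.17 for Efemp1. For tmTNF minus soluble TNF it gave -1.47 to 0.49 for Msln, -1.63 to 0.76 for Krt19 and -0.62 to 0.20 for Igfbp6. The median r between the 6 genes ran from 0.531 to 0.727 with 1 array left out and was 0.476 without the 3 arrays. Over all genes, tmTNF minus control had 20 calls, soluble TNF minus control had 4, and tmTNF minus soluble TNF had 125. With 1 array left out they ran from 16 (without tmTNF 4) to 66 (without tmTNF 1), from 0 (without soluble TNF 1) to 22 (without control 4) and from 28 (without soluble TNF 2) to 233 (without control 1). Without the 3 arrays there were 4 for tmTNF minus control and 17 for soluble TNF minus control, and scaling to the same median gave 239 for tmTNF minus soluble TNF. These shifts come with fewer arrays or another scale, and the cause was not tested. No paired analysis was possible because the labels carry no replicate numbers. Signals near background limit Aldh1a1, Efemp1 and Igfbp6.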
